A study of Drosophila melanogaster with 4 samples.

Results

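Egg activation and the PNG kinase were represented by 6 genes: png, plu, gnu, sra, cort and CanA-14F. They were taken by gene symbol from 17807 genes with raw counts in single Drosophila melanogaster embryos and eggs. All 6 also had a row among the 7367 genes of the authors' normalized table, and 1 of them, sra, had parental values among the 2453 genes of the allele table. The symbols were chosen for their known roles and not by a threshold on measured values.

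Egg activation is the switch that lets a mature oocyte finish meiosis and start embryonic development, and in Drosophila it follows ovulation whether or not the egg is fertilized. A rise of calcium in the egg activates the phosphatase calcineurin, while the anaphase-promoting complex degrades meiotic regulators. The PNG kinase then changes the translation of many maternal mRNAs, among them those of cyclin B and of Smaug, an RNA-binding protein needed for clearing maternal transcripts. png encodes the kinase subunit, plu an ankyrin-repeat subunit and gnu the subunit that activates the kinase at egg activation. cort encodes a meiosis-specific activator of the anaphase-promoting complex. sra encodes a regulator of calcineurin (calcipressin) that is required for the completion of meiosis, and CanA-14F encodes a catalytic subunit of calcineurin.

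In the BDGP6.54 annotation, png (FBgn0000826) lies on chromosome X from 1356488 to 1357601 on the minus strand. plu (FBgn0003114) lies on chromosome arm 2R from 20262958 to 20263684, gnu (FBgn0001120) on 3L from 14802380 to 14803360 and cort (FBgn0000351) on 2L from 6674682 to 6676635, all on the minus strand. sra (FBgn0086370) lies on 3R from 16186999 to 16197584 on the plus strand, and CanA-14F (FBgn0267912) on X from 16560684 to 16587172 on the minus strand. Exons of sra share 301 bases with Bin1 on the opposite strand, and exons of cort share 99 bases with cup and with CG34310 on the opposite strand. Whether the counting used the strand is not given in the sources used here, so reads of these overlaps are uncertain. CanA-14F also has a close paralog, Pp2B-14D, with which reads could be shared, and its values are therefore set beside it below.

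The study followed gene expression through the first 3 h of development in single hybrid embryos, with unfertilized eggs alongside. Mothers were virgin females of the inbred line DGRP_737 and the males were of the line DGRP_352. The treatment field of all 4 libraries reads NA, and how the unfertilized eggs were obtained is not given in the sources used here. Each egg or embryo was first extracted with methanol for metabolites, and its RNA was taken from what remained. This RNA was measured by CEL-Seq2, which primes on the poly(A) tail and counts transcripts as unique molecular identifiers (UMIs), so a change of tail length cannot be told apart here from a change of transcript number. Whole individuals were measured, so fewer cells with a transcript and less of it per cell cannot be told apart either. The 4 libraries held 96 individuals each.

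The authors arranged 245 embryos and 8 eggs along a pseudotime order computed from these same transcriptomes. For description the embryos were divided by rank into 4 rank groups, from group 1, the earliest, to group 4, the latest, with 61, 61, 62 and 61 embryos. Another 26 eggs and a further set of embryos were named in the barcode table but not placed in the order. Of these, the 18 eggs and 70 embryos with at least 163287 UMIs, the lowest total of the order, were used. Totals ran from 163287 to 2069031 UMIs in the order and from 173233 to 735912 in the eggs outside it. The names of all individuals carry a digit, 1, 2 or 3, whose meaning the sources used here do not give. It belongs to the name and was not computed from the transcriptome. All 61 embryos of rank group 1 had digit 1, and 40 of the 61 in rank group 4 had digit 3. Digit 1 was also found in 5, 1 and 7 embryos of rank groups 2, 3 and 4. The 7 in group 4 lay near the end of the order, at ranks 236 to 244. Of the 18 eggs outside the order, 8 have names with the letter O, as have all 8 eggs in the order. The other 10 have the letter A or B, and their numbers fill the gaps in the number series of the embryos. How these 10 were recognised as unfertilized is not given in the sources used here, and results were also computed with O-named eggs only. Whether same-digit individuals share mothers or a collection is not stated, and the p-values measure only the spread between these individuals.

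The maternal germline transcripts osk, nos, bcd, gcl and exu were abundant in the eggs of the order, with a median summed level of 1724 CPM (UMIs of a gene scaled to 1000000 UMIs of the individual), and in rank group 1, with 1725 CPM. Their sum had a median of 236 CPM in the eggs outside the order, with a range from 122.6 to 1973, and osk had a median of 0 there. The 11 early zygotic markers, which mark transcription by the embryo's own genome, summed to between 13.9 and 34.9 CPM in the eggs of the order. In the eggs outside the order the sum ran from 16.5 to 305 CPM with a median of 34.7, against 11.6 to 64.5 CPM in rank group 1 and 2982 to 5092 CPM in rank group 4. In 4 of the 18 eggs it exceeded the highest embryo of rank group 1. Of the 11 genes, 4 (sisA, nullo, ftz and eve) had a median of 0 in both egg groups. The 5 germ plasm markers had a median sum of 1467 CPM in the eggs of the order and 254 CPM in those outside it. All 9 eggshell and follicle cell markers and all 6 sperm and testis markers had a median of 0 in both egg groups.

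The eggs of the order had median levels of all 6 genes close to those of the earliest embryos. These 8 eggs were placed in an order computed from the same transcriptomes, so their likeness to its embryos was partly set by that placement. The values and calls below describe this likeness and are no independent test of it. The catalytic subunit gene png ranged from 10.8 to 117.5 CPM in these 8 eggs, with a median of 82.5, against 52.1 to 139.5 CPM with a median of 96.3 in rank group 1. gnu had a median of 626 CPM in these eggs and 576 CPM in rank group 1, and plu had 118.6 and 105.9 CPM. For sra the medians were 257 and 258 CPM, for cort 43.6 and 46.9 CPM, and for CanA-14F 153.6 and 180.7 CPM. The ranges of eggs and embryos overlapped for each gene. edgeR's quasi-likelihood test called 0 of the 6 genes at an adjusted p under 0.05, where 2.81% of 6004 tested genes were called, and DESeq2 also called 0. At an unadjusted p under 0.05 there were 2, png at a log2 fold change of -0.23 ± 0.10 (SE) and CanA-14F at -0.25 ± 0.10. The share of all tested genes at this unadjusted threshold is not given, so no excess can be read from these 2. For sra the log2 difference was -0.00039 with a 95% interval from -0.13 to 0.13. With spike-in totals as the scale, all genes shifted by a median of 0.59 on the log2 scale in these eggs, and no member was called.

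Along the order the 6 genes left their early level at different places. The running median over 21 embryos went under 50% of the median of rank group 1, and stayed there, at 29.8% of the embryo order for cort, at 35.1% for png and at 45.7% for CanA-14F. gnu followed at 56.3%, sra at 62.4% and plu at 69.8%. In single libraries the place of CanA-14F ran from 37.96% to 56.3%, whereas that of plu ran from 68.6% to 72.2%. The sequence of the 6 genes was the same in each library, except that CanA-14F and gnu shared a place in library 2. The order was computed from the same transcriptomes, so these places describe it and carry no test.

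**Figure D1:**
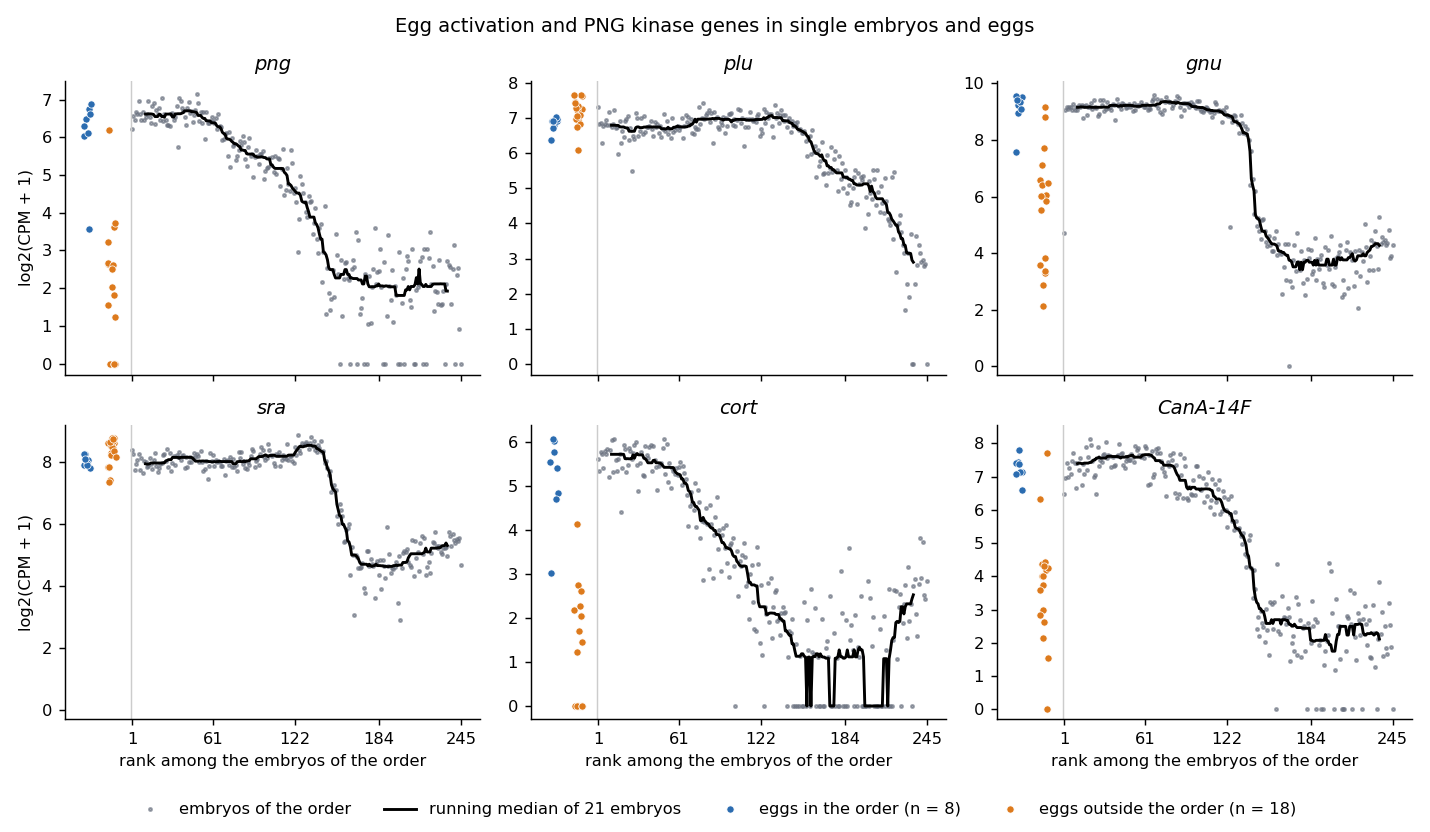
Log2(CPM + 1) of each gene in single individuals: grey points are the 245 embryos by rank in the order, the black line is their running median over 21 embryos, and eggs stand to the left of the line at rank 0 (8 in the order in blue, 18 outside it in orange). cort and png decline first and plu last, and the orange eggs are low for png, cort and CanA-14F but not for plu and sra.

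Among the genes of the kinase complex, the shapes differed. png declined first, with medians of 96.3, 44.2, 4.85 and 3.13 CPM in rank groups 1 to 4, and no embryo of groups 3 and 4 reached the lowest embryo of group 1. gnu stayed level over groups 1 and 2, with medians of 576 and 569 CPM, and then had a median of 21.9 CPM in group 3. Rank group 3 held both high and low embryos, since gnu ranged there from 0 to 475 CPM. plu had medians of 105.9, 121.4, 93.1 and 18.8 CPM in groups 1 to 4, so that most of its decline lay after those of the other subunits. In rank group 4, 3 of 61 embryos had no UMI of plu, while 58 of 61 lay under the lowest embryo of group 1.

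The meiotic genes declined in separate steps. cort had medians of 46.9, 12.1, 1.45 and 2.36 CPM, and 22 of 62 embryos of rank group 3 had no UMI of it. CanA-14F had medians of 180.7, 117.7, 6.30 and 3.70 CPM, and its values in rank group 4, up to 19.98 CPM, stayed under the lowest of group 1 at 87.5 CPM. sra had medians of 258, 265, 91.9 and 32.1 CPM, and in group 3 it ran from 7.35 to 467 CPM. Its running median was highest at 53.5% of the order, with 366 CPM, and lowest at 77.96%, with 23.5 CPM, after which it stood at 38.3 CPM at 95.9%, the last full window. gnu had a similar late difference, from 9.70 CPM at 71.8% to 18.4 CPM in the last window, and cort went from 0 at 63.7% to 4.77 CPM. png stood at 2.50 CPM at its lowest and 2.79 in the last window, where plu was at its lowest, 6.47 CPM. The lowest window was picked as the minimum, so the last window cannot lie below it. The last window also holds the 7 digit-1 embryos of rank group 4, and their part in these late differences was not tested. The median count of cort was 1 UMI in rank groups 3 and 4.

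Spearman's rho of the deposited normalized value with rank was -0.90 for png, -0.88 for CanA-14F, -0.83 for plu, -0.82 for gnu, -0.80 for cort and -0.75 for sra. All 6 were at -0.5 or less, as were 52.5% of the 7170 genes with a mean value of at least 1. The median over the 6 was -0.82 and over all these genes -0.54. On the CPM scale the values for plu and sra were closer to 0, at -0.68 and -0.63. Within single libraries the 6 genes ranged from -0.68 (sra, library 4) to -0.92 (CanA-14F, library 3).

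The eggs outside the order split the 6 genes. png, gnu, cort and CanA-14F were far under rank group 1, while plu and sra were not. cort had no UMI in 8 of these 18 eggs and a median of 1.55 CPM, and all 18 lay under the lowest embryo of rank group 1, which had 20.2 CPM. png was between 0 and 72.7 CPM with a median of 2.83, and 17 of 18 eggs lay under the lowest embryo of that group. CanA-14F had a median of 15.1 CPM and a range from 0 to 208, again with 17 of 18 eggs under all embryos of group 1. gnu had a median of 63.8 CPM and a range from 3.44 to 575 CPM, which overlapped group 1. The lowest embryo of that group had 25.5 CPM and the next 414 CPM, and 2 of the eggs, with 445 and 575 CPM, also lay above the latter.

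In contrast, plu ranged from 67.4 to 201 CPM in the eggs outside the order with a median of 141.7, and sra from 160.9 to 437 CPM with a median of 348. Of the 18 eggs, 17 were above the median of rank group 1 for plu and 14 for sra. On the CPM scale all 18 were above the highest embryo of rank group 4, which had 45.2 CPM of plu and 58.2 CPM of sra. The medians of group 4 were 18.8 and 32.1 CPM, so that the egg medians were 7.56 and 10.8 times as high. Per spike-in UMI the ranges overlapped. The lowest eggs had 0.059 of plu and 0.051 of sra, and the highest embryos of group 4 had 0.181 and 0.206. The medians were 0.127 and 0.022 for plu and 0.372 and 0.041 for sra. No test over all genes was run against rank group 4, so the share of genes that separate in this way is not given.

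Against rank group 1, edgeR called 4 of the 6 genes lower and 2 higher, where 44.1% of 5850 tested genes were called lower and 43.9% higher. At these shares a call alone does not distinguish the members. The groups follow an order computed from the same transcriptomes. The p-values here and against rank group 3 therefore describe the difference and are no independent test of it. The log2 fold changes were -4.34 ± 0.22 (SE) for cort, -3.73 ± 0.20 for png, -2.91 ± 0.21 for CanA-14F and -2.36 ± 0.25 for gnu, with adjusted p of 6.26e-31, 4.29e-30, 3.05e-22 and 1.20e-14. For plu the value was 0.45 ± 0.08 (adjusted p = 7.40e-07) and for sra 0.41 ± 0.06 (adjusted p = 1.05e-08). The 2 higher calls rest on scaling to the UMI totals: with spike-in totals, which lowered the median of all genes by 0.55, plu was at -0.14 and sra at -0.03, neither called. The 4 lower calls remained under every scaling tried. Without library 4, which holds the egg U1O.07 with 72.7 CPM of png, the value for png was -4.61, and that for cort was -4.60. With O-named eggs only, plu was at 0.22 (adjusted p = 0.066).

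Against rank group 3, plu and sra were called higher among the 4 members that passed the filter on low counts, where 18.9% of 5184 tested genes were called higher. The log2 fold change was 0.67 ± 0.14 for plu (adjusted p = 8.77e-05) and 0.98 ± 0.33 for sra (adjusted p = 0.0128). Both calls were lost with spike-in totals (0.60 and 0.90) and with O-named eggs only (0.42 and 1.02), where CanA-14F passed instead (1.31), and that for sra also without the 4 eggs high in early zygotic markers (0.85, adjusted p = 0.081). gnu, at 0.14 ± 0.52, and CanA-14F, at 0.63 ± 0.40, were not called, and png and cort did not pass the filter. In all 4 libraries the median of plu and of sra was higher in the eggs outside the order than in rank group 3.

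Against the eggs of the order, the eggs outside it had lower png (-3.37 ± 0.54, adjusted p = 2.55e-05), gnu (-2.35 ± 0.58, adjusted p = 0.00142) and CanA-14F (-2.62 ± 0.50, adjusted p = 0.00013), where 35.7% of 5193 tested genes were called lower and 28.1% higher. For cort, which the filter removed, the fit without a filter gave -4.02 ± 0.49 (adjusted p = 1.10e-06). plu was at 0.34 ± 0.18 and not called. The call for sra, at 0.38 ± 0.16 with an adjusted p of 0.0425, was lost without each library in turn (0.19 to 0.42), with DESeq2 (0.19), with its size factors (0.17), without a filter (0.35) and without the floor on total UMIs (0.17), and its sign turned with spike-in totals (-0.76). Place in or outside the order was assigned from the transcriptomes, so these values and their p-values describe the split and are no independent test of it. Depth moved with it. The median total was 756620 UMIs in the eggs of the order and 450526.5 UMIs in those outside it, and the median ratio of UMIs to spike-in UMIs was 2511 and 1178. The part of depth and RNA amount in these differences was not tested.

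The single eggs made the split visible. The egg U1O.07 was outside the order with 72.7 CPM of png, 575 of gnu and 208 of CanA-14F, levels like those of the eggs in the order, but 16.5 CPM of cort. The egg U2O.04, also outside the order, had 445 CPM of gnu and 78.998 of CanA-14F with 11.3 of png and 2.26 of cort. Among the eggs of the order, U2O.08, which stood farthest along it, had 10.8 CPM of png, 7.19 of cort and 190.6 of gnu, while its plu, at 118.7 CPM, and its sra, at 270 CPM, were like those of the other eggs. In these 3 eggs cort lay under 20.2 CPM, the lowest level of rank group 1, while gnu was intermediate or high and plu and sra were high.

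The digit in the names gave a comparison that did not use ranks. All 26 eggs entered it, in and outside the order, while the embryos were those of the order. The 74 digit-1 embryos therefore include the 7 of rank group 4. In embryos, all 6 genes were lower at digit 3 than at digit 1, where 44.6% of 5717 tested genes were called lower. The medians went from 91.5 to 2.76 CPM for png, from 573 to 14.7 for gnu, from 43.6 to 1.38 for cort and from 177.6 to 4.403 for CanA-14F. The log2 fold changes were -3.99 ± 0.17, -4.51 ± 0.16, -3.87 ± 0.17 and -4.61 ± 0.18, with adjusted p of 7.62e-50, 1.92e-58, 5.43e-49 and 2.63e-53. For sra the medians were 255 and 31.9 CPM (-1.70 ± 0.15, adjusted p = 2.95e-22) and for plu 105.6 and 38.6 CPM (-0.50 ± 0.15, adjusted p = 0.00139). The TMM scaling of the test placed the median of all genes at 0.05, against -0.41 with DESeq2's size factors and -1.24 with spike-in totals, and all 6 genes were lower under each. The call for plu was lost without library 4 (-0.29, adjusted p = 0.088) and with the embryos outside the order included (-0.25, adjusted p = 0.33). That inclusion also moved CanA-14F to -2.45, still called, while png, gnu, cort and sra stood at -3.67, -4.09, -3.43 and -1.34.

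Eggs and embryos of digit 1 were not called different in any of the 6 genes by edgeR's test, where 0.783% of 6130 tested genes were called. The same held at digit 2, where 7.45% of 6117 were called. At both digits 0 of the 6 had an unadjusted p under 0.05 and DESeq2 called 0. With 8 and 10 eggs the intervals were wide, for example from -1.27 to 0.38 for png at digit 2. Median CPM there were 8.06 in eggs and 28.8 in embryos for png, 143.4 and 505 for gnu, and 126.6 and 114.9 for plu. Each egg group pooled eggs in and outside the order, so the absence of a call does not show equal levels. The 39 digit-1 embryos outside the order, with a png median of 1.34 CPM, did not enter.

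At digit 3 the 8 eggs had much more sra and plu than the 72 embryos. sra ran from 167.4 to 428 CPM in the eggs with a median of 357, and from 6.46 to 259 CPM in the embryos with a median of 31.9. Of the 8 eggs, 6 were above the highest embryo and all 8 above the embryo median. plu ran from 106.1 to 198 CPM in the eggs with a median of 140.1, against 0 to 119.4 CPM and a median of 38.6 in the embryos, and again 6 of 8 eggs were above all embryos. gnu had a median of 29.1 CPM in these eggs and 14.7 CPM in the embryos, with 4 eggs above all embryos and 4 under the embryo median.

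edgeR called sra (2.69 ± 0.33, adjusted p = 3.15e-11), plu (1.52 ± 0.33, adjusted p = 3.73e-05) and gnu (1.27 ± 0.28, adjusted p = 6.93e-05) higher in the digit-3 eggs, where 26.3% of 5405 tested genes were called higher. sra and plu were called under all 11 alternatives, at 2.44 to 3.20 for sra and 1.33 to 1.58 for plu. The digit-3 eggs U3A.06, U3A.23 and U3B.14 are among the 4 eggs with early zygotic markers above rank group 1. Only the setting with O-named eggs left out all of these, and no alternative left out these alone. gnu was not: with the 3 O-named eggs only it was at -0.67 (adjusted p = 0.26), and the O-named eggs had 3.44, 9.36 and 13.4 CPM, against 10.9 to 138.5 CPM in the 5 others. In each of the 4 libraries the egg median was above the embryo median for sra and for plu. png, cort and CanA-14F did not pass the filter. Their egg medians were 1.64, 0.68 and 11.6 CPM, and their embryo medians 2.76, 1.38 and 4.403 CPM.

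**Figure D2:**
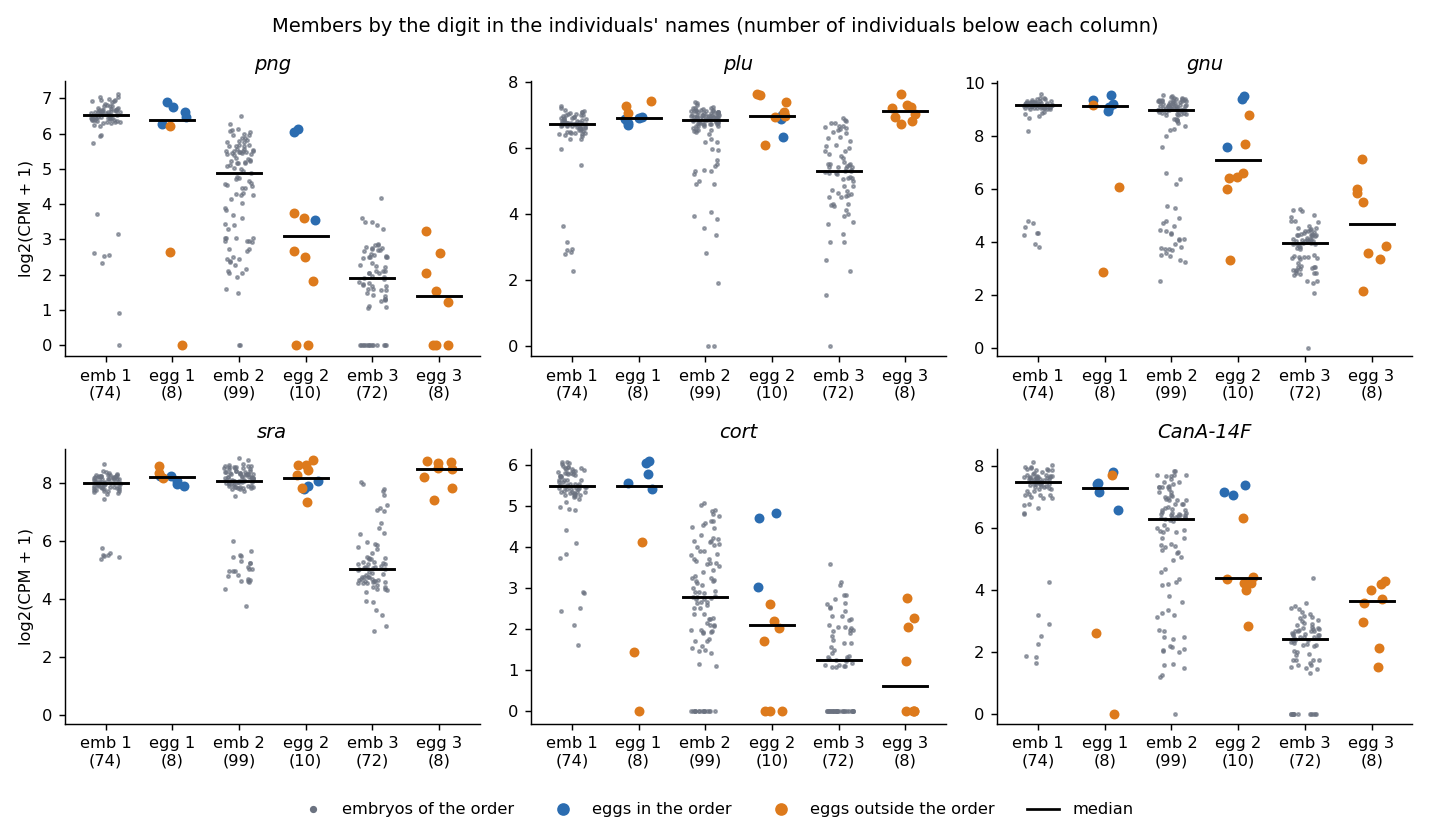
Log2(CPM + 1) of each gene by the digit in the individuals' names, with embryos of the order in grey, eggs of the order in blue, eggs outside it in orange and the median as a bar. At digit 3 the median of sra is 357 CPM in eggs and 31.9 CPM in embryos, while png and cort are near 0 in both.

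Among eggs alone, digit 3 was lower than digit 1 for cort (-4.71 ± 0.64), png (-4.62 ± 0.61), gnu (-3.56 ± 0.52) and CanA-14F (-3.55 ± 0.56), with adjusted p of 7.22e-11, 2.58e-11, 1.21e-09 and 1.58e-08, where 36.4% of 6530 tested genes were called lower. The digit-1 eggs had medians of 82.5 CPM of png and 43.6 CPM of cort. All 8 digit-3 eggs lay outside the order and 5 of the 8 digit-1 eggs in it, so digit and place in the order cannot be told apart among eggs. The digit-1 eggs U1A.17 and U1B.37, outside the order, had 5.22 and 0 CPM of png and 1.74 and 0 CPM of cort. At digit 3, 3 of the 8 eggs had no UMI of png and 4 of the 8 had none of cort. sra, at 0.13 ± 0.42, and plu, at 0.11 ± 0.44, were not called, with 95% intervals from -0.69 to 0.95 and from -0.75 to 0.96.

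The change from digit 1 to digit 3 was then compared between eggs and embryos by an interaction term, a comparison added after the values had been seen. The log2 change of sra lay 2.35 ± 0.46 higher in eggs than in embryos (adjusted p = 7.83e-06), where 19.7% of 6530 tested genes were called higher. That call held under all 9 alternatives, at 2.02 to 2.63. Of these, only the setting with O-named eggs left out all digit-3 eggs high in early zygotic markers. The values for gnu (1.51 ± 0.52, adjusted p = 0.0133), CanA-14F (1.602 ± 0.601, adjusted p = 0.0233) and plu (1.16 ± 0.46, adjusted p = 0.0341) also passed, but gnu turned to -1.11 with O-named eggs only, and the calls for CanA-14F and plu were each lost without any 1 of the libraries. For png (-0.09 ± 0.60) and cort (-0.32 ± 0.72) the falls in eggs and embryos were not distinguishable, with intervals from -1.27 to 1.10 and from -1.74 to 1.09.

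**Figure D3:**
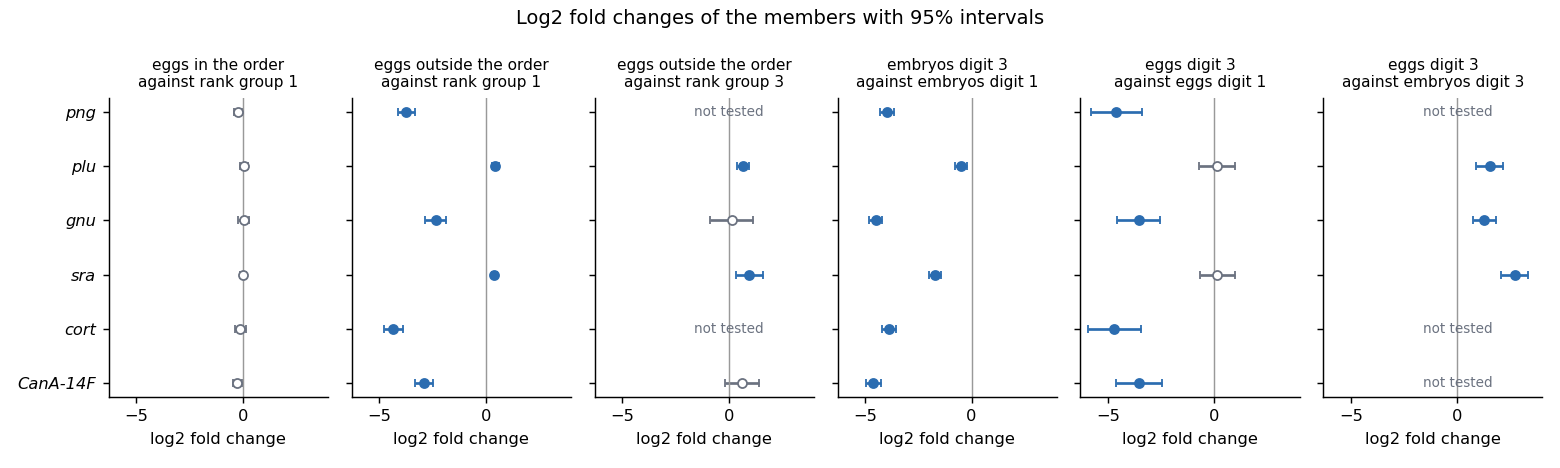
Log2 fold changes of the 6 genes in 6 comparisons by edgeR's quasi-likelihood test, with 95% intervals: filled blue points passed an adjusted p under 0.05, open points did not, and genes that did not pass the filter on low counts are marked as not tested. plu and sra lie at or to the right of 0 in the 4 comparisons of eggs with embryos, although spike-in totals put both just under 0 in eggs outside the order against rank group 1 (-0.14 and -0.03).

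The genes around the 6 were described by lists of their pathway. Of 9 calcineurin and calcium genes, 6 were tested by the interaction term, with a median of 2.33 against -0.14 for all genes. Called higher, meaning a log2 change higher in eggs than in embryos, were 5 of the 6, beside 19.7% of all genes tested. Beside sra and CanA-14F these were Trpm, a cation channel that carries calcium into the egg at activation (3.05), the paralog Pp2B-14D (2.75) and CanB2, a regulatory subunit of calcineurin (2.31). The call for CanA-14F was lost without any 1 of the libraries. Counts of this list and of those below are given for the main setting only. With spike-in totals, all genes called higher by the interaction term fell from 1289 to 331. At digit 3 itself, Trpm was higher in eggs by 2.90 and Pp2B-14D by 2.57. Pp2B-14D had a median of 255 CPM in the eggs outside the order and 53.5 CPM in rank group 3, against 15.1 and 6.30 CPM for CanA-14F, so in those eggs the paralogs stood at different shares of their rank group 1 medians of 323 and 180.7 CPM. Cam, which encodes calmodulin, rose in embryos between digit 1 and digit 3 by 1.29 and was not called between eggs and embryos at digit 3 (0.07).

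Among 10 regulators and targets of translation linked to PNG, 8 were tested and 7 were called higher by the interaction term, beside 19.7% of all genes tested, with a median of 1.24 against -0.14 for all genes. smg, the gene of Smaug, showed the widest gap, at 3.19 in the interaction and 3.46 between eggs and embryos of digit 3. CycB, the gene of cyclin B, was higher in digit-3 eggs by 1.92, pum, an RNA-binding repressor, by 1.58 and bru1, another such repressor, by 1.64. Cdk1 was not called (-0.21). In the eggs outside the order against rank group 1, 5 of the 8 were called higher, beside 43.9% of all genes tested. The 2 called lower were bru1 (-2.54) and CycA (-0.35), beside 44.1% of all genes tested. With spike-in totals, 0 of all genes tested were called higher in this comparison.

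Of 15 listed genes of the anaphase-promoting complex 14 were tested by the interaction term, with 2 called higher, 4 lower and 8 not called, and a median of -0.29, beside 19.7% higher, 22.5% lower and a median of -0.14 over all genes. At digit 3, 8 of 12 tested genes were lower in eggs than in embryos, beside 39.8% of all genes tested, among them ida (-2.59), APC10 (-2.19), Rca1 (-1.996) and the ubiquitin-conjugating enzyme vih (-1.32). fzy, the mitotic Cdc20, rose in embryos between digit 1 and digit 3 by 1.43 and was only slightly lower in eggs of digit 3 (-0.16, called), while its meiotic relative cort stood at -3.87 in embryos and fzr, the Cdh1 homolog, at -1.15.

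Of 10 regulators of meiotic completion all were tested by the interaction term, with 3 called higher, 0 lower and 7 not called by edgeR. Over all genes tested, 19.7% were called higher and 22.5% lower. The median of the 10 was 0.07 against -0.14 for all genes. The 3 called higher were gwl, the Greatwall kinase (2.37), mtrm, a Polo inhibitor (1.597), and tws, a phosphatase regulatory subunit (0.82). Among 6 other genes of the egg-to-embryo transition, wisp, the cytoplasmic poly(A) polymerase, was 1.50 higher in digit-3 eggs than in embryos and was not called between digit-3 and digit-1 eggs (0.00). dhd and fs(1)Ya, both used in the earliest nuclear events, fell in eggs between digit 1 and digit 3 (-4.28 and -4.62) and in embryos (-4.28 and -5.45).

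The genes whose levels were most like each member over the 245 embryos were taken by Pearson's r of log2(CPM + 1), as a description. For png these were Mdh2 (0.95), slif (0.94) and Hsp26 (0.94), and for gnu Fs(2)Ket, yem and Vha36-1 (all 0.97). For plu they were wisp, CG2034 and Mdh1 (0.92, 0.92 and 0.91), for sra BTBD9, gus and conu (0.97, 0.97 and 0.96), for cort Rilpl, Trx-2 and CG10576 (0.91, 0.90 and 0.89) and for CanA-14F fok, cu and Jabba (0.95, 0.95 and 0.94). Between members the lowest r was 0.39, for plu with cort, and the highest 0.92, for gnu with CanA-14F. The subunits of the kinase complex had 0.90 for png with gnu, 0.67 for plu with gnu and 0.62 for png with plu. The embryos share libraries and a common decline along the order.

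For sra, parental values were given by the authors from known variants. Whether any of these lies in the bases shared with Bin1 is not given in the sources used here, so reads of Bin1 cannot be told apart from those of sra there. In the 8 eggs the paternal value was 0 or 1 in each egg, 0.315% of the summed signal, and this is the background of the allele calls, since eggs carry no paternal genome. The paternal share of the summed signal was 0.106%, 0.135%, 2.18% and 29.6% in rank groups 1 to 4. The number of embryos above the highest egg share of 1.11% was 1 of 61, 2 of 61, 30 of 62 and 55 of 61 in the same groups. These counts also rise as maternal values fall, so they do not show signal above background. Maternal values were 70 to 349 in the eggs, against a median of 8 in rank group 4. There a paternal value of 1, the highest in eggs, already exceeded 1.11%, and the 55 are all embryos with any paternal signal. The paternal value had a median of 3 and a maximum of 15 in that group. The mean maternal value went from 138.5 ± 80.7 (SD) to 121.4 ± 37.003, 68.9 ± 115.97 and 10.7 ± 10.1. The mean paternal value went from 0.148 ± 0.358 and 0.164 ± 0.416 to 1.53 ± 1.93 and 4.48 ± 3.52.

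In rank group 4 the paternal value was still below the maternal one, by a mean of 6.18, and was lower in 42 of 61 embryos. The two-sided sign-flip permutation test over 2062 genes gave an adjusted p of 1.83e-05, from a p of 1e-05, the smallest that its 100000 resamples can give. The share of genes called with a lower paternal value was 70.2%, so sra was among the majority. Leaving out each library in turn gave differences between -7.67 and -5.15, all called.

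**Figure D4:**
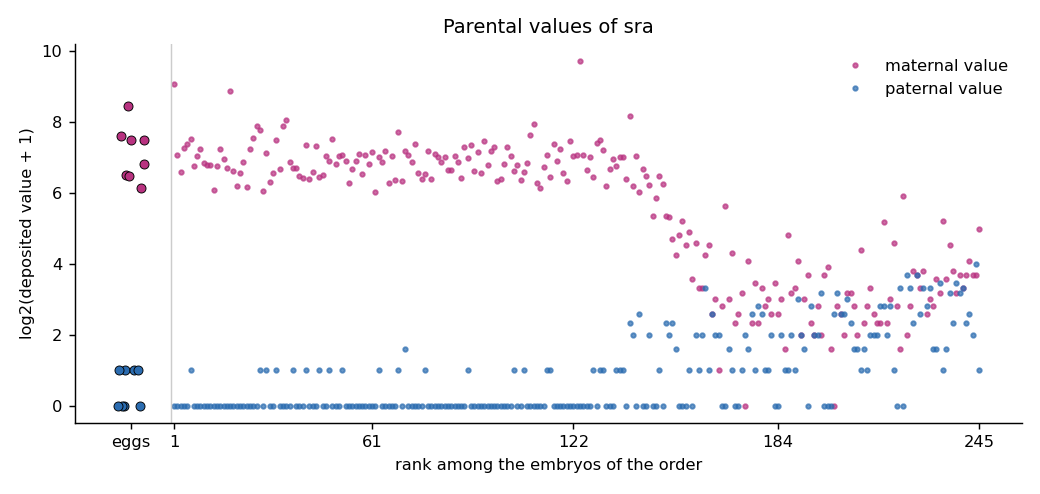
Parental values of sra as log2(deposited value + 1) in the 8 eggs of the order (outlined points, left) and in the 245 embryos by rank, maternal in pink and paternal in blue. The paternal values are 0 or 1 in all eggs and reach 15 in rank group 4, while the maternal values decline to a median of 8.

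The 70 embryos outside the order had low levels of most of the 6 genes, with medians of 1.36 CPM for png, 1.83 for plu, 9.43 for gnu and 1.43 for cort. A small number of them had early levels, up to 98.1 CPM of png and 618 CPM of gnu. CanA-14F stood apart, at 0 to 197 CPM with a median of 22.9, against 0 to 19.98 CPM with a median of 3.70 in rank group 4. Of the 70 embryos, 38 exceeded the highest embryo of rank group 4 for CanA-14F, whereas 14 did so for sra, 7 for plu, 6 for gnu, 5 for png and 3 for cort. High CanA-14F occurred at every digit, with medians of 18.1, 65.8 and 39.7 CPM at digits 1, 2 and 3. In these 70 embryos the level of CanA-14F was high where the summed early zygotic markers were low: across embryos, Pearson's r of the log2 levels was -0.92 and Spearman's rho -0.92, against -0.25 and -0.06 for png. The other 4 genes had r between -0.09 and 0.31, and rho was 0.57 for gnu and 0.50 for cort. Both measures come from the same 4 libraries and share the total UMI count of each embryo. The summed early zygotic level in these embryos ran from 30.3 to 4912 CPM with a median of 484.

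**Figure D5:**
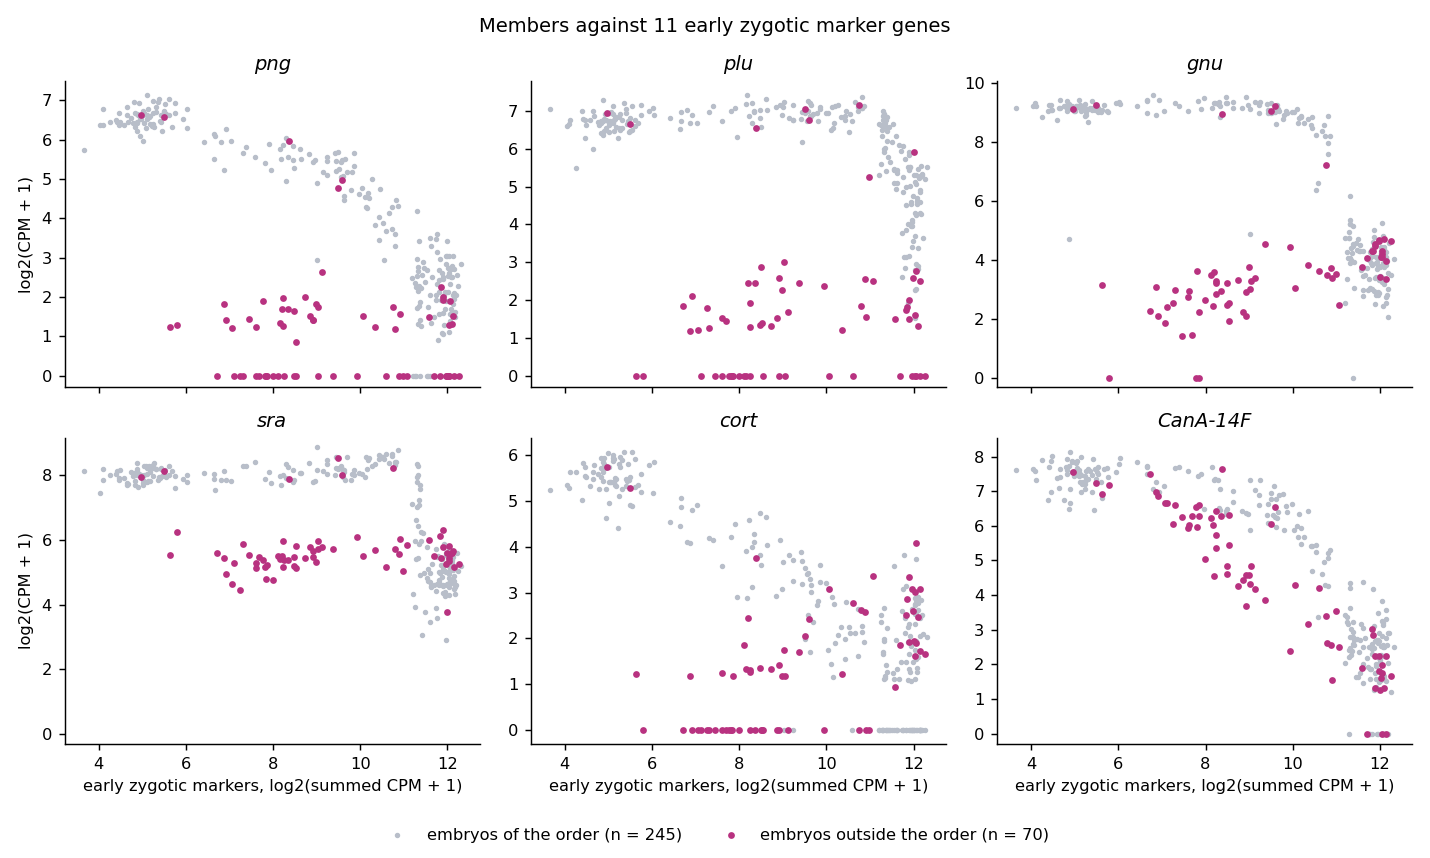
Log2(CPM + 1) of each gene against the log2 of the summed early zygotic markers plus 1 CPM, with the 245 embryos of the order in grey and the 70 outside it in pink. Outside the order, CanA-14F declines with rising zygotic markers (r = -0.92), while the medians of png, plu and cort in these embryos are 1.36, 1.83 and 1.43 CPM.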

How the data were processed

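Raw UMI counts per gene and barcode were used as the authors deposited them; the file names give STARsolo as the counting tool. The submitters' processing notes list Trim Galore 0.6.10, SAMtools 1.17, Picard, GATK 4.4.0.0 and R 4.2.1 and the builds dm6 and BDGP6, without roles. The deposited tables in pseudotime order hold whole numbers normalized by the authors in a way not given in the sources used here, and were read as a score without a fixed unit, with entries of 0.1 read as 0. The barcode table places 384 individuals, and the 384 barcode columns without an individual were not used. CPM were computed from the raw counts without spike-ins.

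Counts were tested with edgeR 4.0.16 (quasi-likelihood test, TMM, filterByExpr, library as a model term) in R 4.3.3, with Benjamini-Hochberg adjustment over all tested genes and a threshold of 0.05. The standard error is the log2 fold change divided by the root of the test's F. Alternatives were DESeq2 1.42.0, its size factors in edgeR, spike-in totals as library sizes (at least 50 spike-in UMIs), no filter, no library term and leaving out each library. The floor on total UMIs of individuals outside the order was not part of the planned design. It follows earlier work on these data and was checked by dropping it. Both tests were checked on simulated data with known changes. The allele values, called by the authors from variants, are also deposited scores. They were compared by a sign-flip permutation test in Python 3.11.15 (numpy 2.4.6, pandas 2.3.3, scipy 1.17.1) for genes with signal in at least 10 embryos and a mean of at least 1. The members, the pathway lists, the markers and the tests were chosen with earlier results of these data known. Named genes were the 6 members, all pathway genes as examples of their lists, and for each member the 3 genes with the highest r. Deeper individuals have less counting error: a gene with no UMI at the lowest total used could still be present at up to 3 UMIs. Counting error is the only part of the error that depth covers.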

Additional observations from a re-analysis of the deposited data

Results flagged for a closer look

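Of 36 combinations of a gene with a group of 8 or 10 individuals, 5 held an individual far from the others, 3 of them the same egg. Chance alone would mark about 1 in 20 if the combinations were independent, but their groups share eggs. The 5 can therefore not be read against that rate. Among the O-named eggs outside the order, U1O.07 had 72.7 CPM of png against 0 to 11.3 CPM in the others, 16.5 CPM of cort against 0 to 5.09 CPM, and 208 CPM of CanA-14F against 1.91 to 78.998 CPM. Among the eggs of the order, U2O.08 had 190.6 CPM of gnu against 498 to 744 CPM in the others. Among the digit-3 eggs, U3A.06 had 138.5 CPM of gnu against 3.44 to 63.8 CPM. It is also 1 of the 4 eggs with early zygotic markers above rank group 1.

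The change from digit 1 to digit 3 differed between eggs and embryos by the interaction term for sra (2.35 on the log2 scale), gnu (1.51), plu (1.16) and CanA-14F (1.602). Only the value for sra was called under all 9 alternatives.

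The embryos outside the authors' order, which enter none of the main comparisons, had median levels of 44.7 CPM of sra and 22.9 CPM of CanA-14F, above the medians of rank group 4 at 32.1 and 3.70 CPM. Their place in development is not given in the sources used here.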

How the results depend on the processing

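No paired analysis of the 4 libraries was possible because the labels give them as 1 group. Only the parental values of sra were compared as pairs, within each embryo. Library as a block was already a term of the reported fits, and the fits without it are among the alternatives. Rank correlations moved by more than their spread over libraries for png per spike-in UMI (-0.866) and in library 1 (-0.876), for plu as CPM (-0.683), per spike-in UMI (-0.721) and in library 2 (-0.741), for gnu in library 2 (-0.743), for sra as CPM (-0.633) and in library 4 (-0.680), for cort in library 2 (-0.890) and for CanA-14F per spike-in UMI (-0.845) and in library 3 (-0.923). The number of members called higher in eggs outside the order than in rank group 1 went from 2 to 0 with spike-in totals (plu -0.14, sra -0.026) and to 1 with O-named eggs. The number called lower went from 4 to 2 with DESeq2, which gave gnu and CanA-14F no adjusted p. Against rank group 3 it went from 2 higher to 0 with spike-in totals, to 1 with O-named eggs, where plu and sra were lost and CanA-14F was gained (1.31), and to 1, plu, without the 4 eggs high in early zygotic markers. Against the eggs of the order it went from 1 higher to 0 with DESeq2, its size factors, spike-in totals (sra -0.76), no filter and no floor, to 2 without a library term and without the 4 eggs, and to between 0 and 0 without single libraries. In the interaction it went from 4 higher to 1 with spike-in totals, 2 without a filter, 1 with O-named eggs (gnu -1.11), and between 1 and 2 without single libraries. gnu in digit-3 eggs turned to -0.67 with O-named eggs. The causes were not tested.

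Counts over all genes moved by more than 1.5 times as follows, as a multiple of the main count or as a count. In the eggs of the order against rank group 1, the number higher was 1.72 times the main count of 54 with DESeq2, 0.037 with spike-in totals, 0.296 in digit 1 alone, and 0.13 and 2.06 at the extremes without single libraries, and the number lower was 1.78, 0, 0.209, and 0.157 and 1.55. With spike-in totals the number higher became 0 in eggs outside the order against rank group 1 (main 2570) and against the eggs of the order (main 1458), and 0.148 times the main 981 against rank group 3, where O-named eggs gave 0.502 and leaving out library 3 0.652. There the number lower was 0.64 with spike-in totals and 0.666 with O-named eggs. Against the eggs of the order, the number higher was 0.516 with size factors, 0.48 without the floor, 0.588 with O-named eggs, and 0.559 and 0.616 without libraries 1 and 4. In embryos by digit, the number higher was 0.193 with spike-in totals and 1.81 without a filter, and the number lower 1.62 with spike-in totals. At digit 1, the 21 higher and 27 lower became 54 and 6.11 times as many with DESeq2, 0 and 0 with spike-in totals or without library 2 or 4, 0 and 1 without library 1 or with eggs of the order only, 2 and 5 without a filter, 6 and 11 without the floor and 2 and 3 with O-named eggs. At digit 2, the 286 lower became 538 with DESeq2, 69 with O-named eggs, 4 with eggs of the order only, 0.357 times as many with spike-in totals and between 54 and 599 without single libraries, and the 170 higher became 91 with size factors, 0 with spike-in totals, 15 without a filter, 77 without the floor, 6 with O-named eggs, 1 with eggs of the order only, and 0.653, 0.294 and 0.0176 times as many without libraries 1, 2 and 3. At digit 3, the 1420 higher became 860 with spike-in totals. Among eggs by digit, the 812 higher became 0 with spike-in totals, 527 with size factors, 1318 without a filter, 1732 with O-named eggs and between 454 and 1292 without single libraries. In the interaction, the 1289 higher became 331 with spike-in totals, 698 with O-named eggs and 806 without library 2, and the number lower 961 without library 3. Levels under a few CPM, such as those of png and cort late in the order, rest on medians of 1 to 3 UMIs per individual, where small differences were not detectable at this depth.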
